A study of Mus musculus with 12 samples.

Results

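The 33 genes described here encode the chaperones, folding enzymes, stress sensors, degradation factors and translocation subunits of the endoplasmic reticulum (ER). The rule is a list of names with no threshold on measured values, drawn up with earlier results of these data known. All 33 were found among the 55416 genes of the table and passed the filter on low values (a mean value of at least 1 over the 12 libraries). Polyadenylated RNA was sequenced from cultured neonatal mouse cardiomyocytes, in 4 groups of 3 libraries. PBS control cells received PBS and a negative-control GapmeR, and PBS knockdown cells received PBS and a GapmeR against lincRNA-p21. PE control and PE knockdown cells received the same GapmeRs and phenylephrine (PE), an alpha1-adrenergic agonist that makes cardiomyocytes grow, for 24 hours. A GapmeR is an antisense oligonucleotide that leads RNase H to the RNA it binds, so every group, controls included, carried an oligonucleotide. The labels do not say how many GapmeR sequences were used or whether replicates came from separate cultures or animals, so each p-value is set against the spread of 3 libraries a group, and that spread may be technical.

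Secretory and membrane proteins enter the ER through the Sec61 channel and fold there with the help of the Hsp70 chaperone BiP (Hspa5), the Hsp90 paralogue GRP94 (Hsp90b1), the calnexin and calreticulin cycle and the protein disulfide isomerases. Proteins that fail to fold are passed back to the cytosol and degraded by the proteasome, which is called ER-associated degradation. When unfolded proteins accumulate, the sensors ATF6, IRE1 (Ern1) and PERK (Eif2ak3) start the unfolded protein response. Cleaved ATF6 and the transcription factor XBP1, whose mRNA is spliced by IRE1, then raise transcription of chaperone and degradation genes, while PERK slows translation and favours ATF4. In the heart, ATF6 and BiP are best known from pressure overload and from ischaemia and reperfusion. The sensors are switched on by cleavage, splicing or phosphorylation, and counts per gene show none of these. The count of Xbp1 in particular sums its spliced and unspliced mRNA.

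ATF6 and XBP1 act through ER stress response elements, so the promoters of the genes were searched for them. The window ran from 250 bases before to 50 bases after each RefSeq start site on GRCm38.p6, and 27 of the 33 genes had such a window. The element named ERSE (CCAAT, 9 further bases and CCACG, on either strand) was found in 9 of these 27 genes and in 0.119% of all 32851 windows. The shorter element ERSE-II (ATTGG, 1 further base and CCACG, on either strand) was found in 2 of 27 and in 0.0365% of all windows. The core TGACGTGG, also searched on both strands, was found in 0 of 27 and in 0.676% of all windows. ERSE and ERSE-II share the blocks CCAAT (or its reverse complement ATTGG) and CCACG, and the last bases of the core are the reverse complement CGTGG of the latter. Members with a match were Hspa5, Hsp90b1, Creld2, Dnajc3, Calr, Canx, Pdia6, Syvn1 and Derl3 for ERSE, and Herpud1 and Dnajb11 for ERSE-II. Such a match is a description of letters, not of a bound site. Counted by window, ERSE was found in 9 of the 28 windows of these 27 genes. The list was made of genes of the response that works through these elements, so their higher share is not a result of these data. The windows of Herpud1, Derl3 and Dnajc3 are shown whole because these were the genes with a match whose transcripts changed with PE in control cells. Each is printed 5′ to 3′ on the strand of the gene, with the fixed letters of the element in capitals.
Herpud1, chr8:94386179-94386478, plus strand: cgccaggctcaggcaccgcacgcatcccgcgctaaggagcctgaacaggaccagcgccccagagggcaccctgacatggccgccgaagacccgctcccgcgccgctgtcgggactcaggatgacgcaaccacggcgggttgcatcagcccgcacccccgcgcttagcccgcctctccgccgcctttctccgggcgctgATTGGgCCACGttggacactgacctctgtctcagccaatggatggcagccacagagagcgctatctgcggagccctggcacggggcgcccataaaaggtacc
Derl3, chr10:75893148-75893447, plus strand: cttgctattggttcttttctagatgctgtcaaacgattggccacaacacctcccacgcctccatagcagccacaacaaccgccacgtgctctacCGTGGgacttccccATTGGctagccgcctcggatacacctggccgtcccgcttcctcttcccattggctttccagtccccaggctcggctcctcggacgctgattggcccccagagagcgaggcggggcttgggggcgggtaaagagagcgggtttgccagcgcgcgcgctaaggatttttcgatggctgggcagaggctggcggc
Dnajc3, chr14:118937682-118937981, plus strand: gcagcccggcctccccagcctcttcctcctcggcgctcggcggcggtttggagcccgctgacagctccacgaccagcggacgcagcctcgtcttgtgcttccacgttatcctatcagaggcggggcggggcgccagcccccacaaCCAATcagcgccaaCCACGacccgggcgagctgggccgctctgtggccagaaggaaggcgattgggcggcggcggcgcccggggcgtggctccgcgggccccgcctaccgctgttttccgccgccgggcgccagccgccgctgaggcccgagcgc
The element of Derl3 lies on the strand opposite to the gene, so it appears here as its reverse complement. Its first base is at position -156 from the start site, that of Herpud1 at -52 and that of Dnajc3 at -105. For comparison, 4 matches follow from the promoters of the major chaperones Hspa5 (1 match, at -65), Calr (1 match, at -162) and Hsp90b1 (2 matches, at -212 and -107), whose transcripts did not pass the test in any comparison.
Hspa5: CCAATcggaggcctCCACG
Calr: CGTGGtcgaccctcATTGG
Hsp90b1, first match: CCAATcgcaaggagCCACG
Hsp90b1, second match: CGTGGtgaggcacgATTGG

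Values are normalised counts, meaning reads per gene scaled by a size factor of the library, and each library held between 21325485 and 22139681 recovered reads. Levels of lincRNA-p21 (Trp53cor1) were 64.5 ± 5.5 in PBS control, 15.1 ± 6.6 in PBS knockdown, 41.6 ± 12.5 in PE control and 9.16 ± 0.728 in PE knockdown libraries (mean ± SD over 3 libraries, as for every mean below). Markers of cardiac muscle, fibroblasts, endothelium, leukocytes and smooth muscle were all detected, and none was at 0 in all libraries. PBS knockdown replicate 2 lay farthest from its group (a median absolute log2 distance of 0.258 from the other replicates, against 0.081 to 0.182 for the other 11 libraries). It was the highest of the 12 libraries for 9 of the 33 genes, among them Herpud1, Syvn1 and Ern1, and the lowest for 8, among them Hspa5, Hsp90b1, Calr and Canx. Values without it are given for calls it changes, and every comparison was also fitted without PBS knockdown replicate 2, PBS control replicate 2 and PE knockdown replicate 1 together. The last pair lay at 0.158 and 0.174, while PBS knockdown replicate 1, at 0.182, was kept, so these are not the 3 farthest libraries. They were chosen with earlier results of these data known.

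In PBS control libraries the 6 most abundant transcripts encoded folding proteins, and the sensors Eif2ak3 and Ern1 were the least abundant. On a scale of reads per kilobase of exon and per equal library total (RPKM) in PBS control libraries, Calr stood at 200 ± 25.3, the disulfide isomerase subunit P4hb at 172 ± 16.4 and Hspa5 at 141 ± 5.0. Pdia3, the isomerase of the calnexin cycle, followed at 125 ± 9.50, the membrane lectin Canx at 98.5 ± 8.17 and Hsp90b1 at 96.4 ± 7.90. Calr and P4hb differed by less than the sum of their SDs, and so did Canx and Hsp90b1. Herpud1, at 72.2 ± 3.63, was the most abundant of the degradation genes, and the median of the 33 genes was 17.2. At the low end on the same scale were Derl2 at 4.07 ± 0.518 and the sensors Eif2ak3 at 2.79 ± 0.130 and Ern1 at 2.76 ± 0.229, the last pair indistinguishable by the same measure. Atf6 stood higher, at 12.3 ± 0.126, above the folding genes Ero1l, Hspa13 and Pdia5, and Xbp1 at 29.6 ± 0.396. The order hardly moved between conditions: its Spearman correlation over the 33 genes with that in PBS control was 0.995 in PBS knockdown, 0.988 in PE control and 0.977 in PE knockdown (a description over genes that share libraries, with no test). The lowest mean passed to Derl3 with PE, at 2.07 ± 0.430 in PE control and 1.58 ± 0.187 in PE knockdown libraries. Eif2ak3 stood at 2.19 ± 0.174 and 1.91 ± 0.276 there. Together the 33 genes took 0.476% ± 0.0068 of the signal in PBS control, 0.506% ± 0.0417 in PBS knockdown, 0.419% ± 0.0080 in PE control and 0.472% ± 0.0193 in PE knockdown libraries. Their summed normalised count, the scale used for the tests, was 99254 ± 3181, 100570 ± 7827, 97600 ± 2060 and 103537 ± 1228 in the same order.

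**Figure D1:**
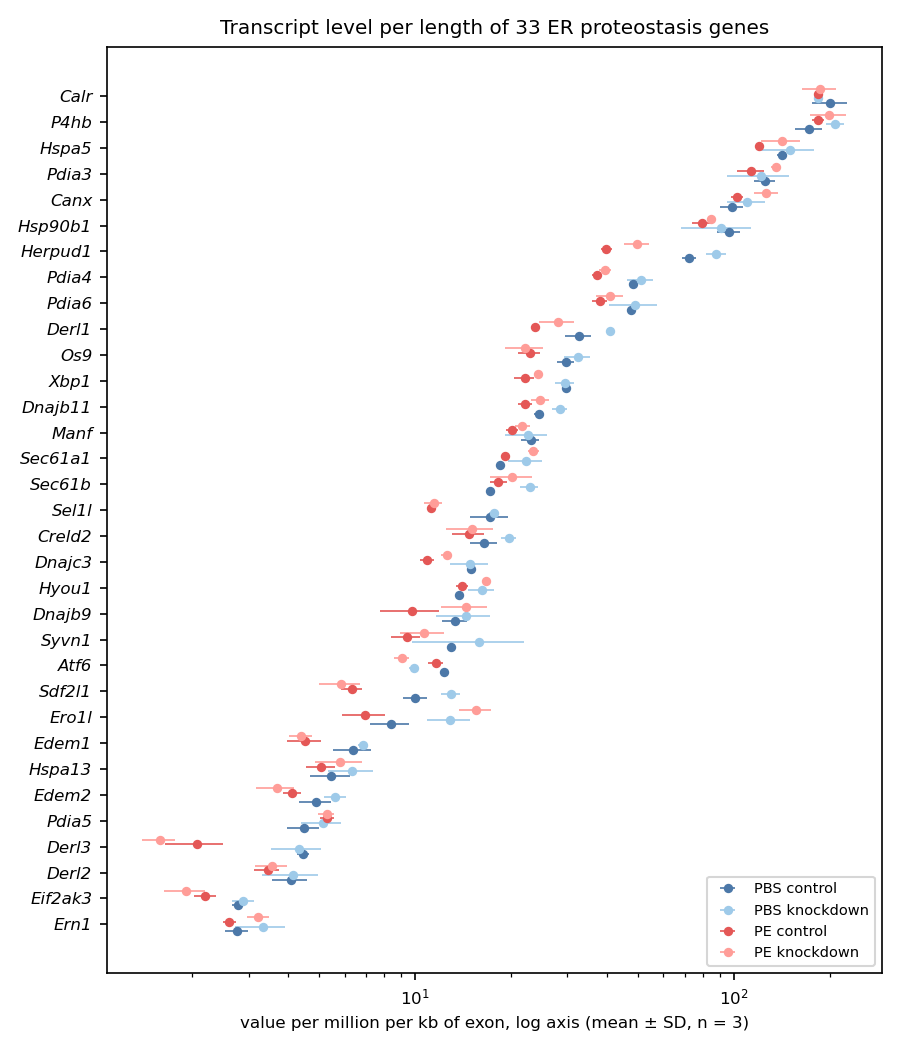
Level of each of the 33 genes per kilobase of exon and per equal library total (RPKM, log axis), as the mean of 3 libraries per group with the SD as a bar, ordered by the level in PBS control. Calr, P4hb and Hspa5 lie above 100 in every group, and Eif2ak3 and Ern1 lie at the bottom in PBS control.

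The first comparison asked how the ER genes of control cells responded to PE. Of the 9 genes of ER-associated degradation 5 fell, the major chaperones did not pass the test, and 1 folding enzyme rose. By limma on log2 of the normalised count plus 1, with p-values adjusted over 21799 genes and called at 0.05, 8 of the 33 genes were lower (24.2%, where 12.8% of all genes tested were called lower) and 1 was higher (3.03%, where 12.6% of all genes were). In either direction 25.4% of all genes were called. Among the 10470 genes at least as abundant as the scarcest of the 33 (a mean of 130.3), 16.1% were called lower and 19.6% higher. The median log2 change of the 33 genes was -0.084, against -0.005 over all genes tested. The groups did not overlap for 12 genes that were lower and 6 that were higher, against 20.7% and 21% of all genes. Without the 3 libraries named above 14 genes were called, 5 higher and 9 lower, where 17.4% of all genes were called higher and 16.6% lower. With 1 library left out 4 to 13 were called. The count was 4 without PBS control replicate 1 or PE control replicate 1, and 5 without PBS control replicate 3 or PE control replicate 2. Calls over all genes moved too, from 2742 higher and 2801 lower with all 12 libraries. They were 2108 and 2155 without PBS control replicate 1, and 2068 and 2261 without PE control replicate 1. Without PBS knockdown replicate 2, where 13 of the 33 were called, they were 3289 and 3263. On values rescaled to equal totals, which shifted the log2 changes of the 33 genes by a median of -0.158, the split was 0 higher and 12 lower. Of all genes 7.72% were then called higher and 19.8% lower. Among the 33, Atf6, Ern1, Hspa13, Dnajb11, Calr and Pdia3, none of them called, changed sign.

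Of the 9 genes of ER-associated degradation, 5 fell in control cells, 0 rose, and the median log2 change was -0.313. Herpud1 (chromosome 8, 94386438 to 94395377, GRCm38) encodes an ER membrane protein that holds the HRD1 ubiquitin ligase complex together. It was read at 3357, 3530 and 3647 in PBS control and at 2083, 2176 and 2212 in PE control libraries. All 3 PE libraries lay far below all 3 PBS libraries. The group means were 3511 ± 146 and 2157 ± 66.5, which is a log2 change of -0.70 ± 0.09 (the error is limma's standard error for this and all later log2 changes; adjusted p = 8.35e-06). Derl3 (chromosome 10, 75893413 to 75895941), a derlin of the retrotranslocation machinery, had 183, 199 and 173 in PBS control and 84.0, 85.0 and 119 in PE control libraries. It was the least abundant of the 33 genes by count, and its means were 185 ± 13.4 and 96.1 ± 20.1, which is -0.95 ± 0.18 on the log2 scale (limma, adjusted p = 4.68e-04).

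Sel1l (chromosome 12, 91806043 to 91849157), the adaptor that brings substrates to HRD1, had 3319, 2720 and 3122 in PBS control and 2235, 2223 and 2211 in PE control libraries. The PE libraries were nearly equal and the PBS libraries spread more widely, without overlap. Its log2 change was -0.45 ± 0.09 (limma, adjusted p = 9.29e-04). Derl1, another derlin, had 2414, 2142 and 2205 in PBS control and 1809, 1864 and 1836 in PE control libraries, a log2 change of -0.29 ± 0.09 (limma, adjusted p = 0.0238). The groups again did not overlap. Edem1, a mannosidase-like protein that marks misfolded glycoproteins for disposal, had 895, 761 and 916 in PBS control and 647, 764 and 624 in PE control libraries. Here PE replicate 2 exceeded PBS replicate 2, so the groups overlapped, and the log2 change was -0.34 ± 0.11 (limma, adjusted p = 0.0248). Herpud1, Derl3 and Sel1l kept their calls with any one of the 12 libraries left out, while Edem1 lost its call in 4 of these 12 fits and Derl1 in 5.

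The other 4 degradation genes did not pass the test. The HRD1 ligase Syvn1 changed by -0.31 ± 0.18 on the log2 scale without overlap of its groups, the lectin Os9 by -0.22 ± 0.12, Edem2 by -0.08 ± 0.12 and Derl2 by -0.08 ± 0.13. The summed normalised count of the 9 genes was 13839 ± 285 in PBS control and 10427 ± 64 in PE control libraries, with no overlap. The count of 5 became 5 or 6 under the other settings that left out no single library, and 3 to 6 with 1 library left out. It was lowest, at 3, without PBS control replicate 1, PBS control replicate 3, PE control replicate 1 or PE control replicate 3.

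Of the 10 lumenal chaperones and co-chaperones, 2 fell and 0 rose. Hspa5 had 12375, 12506 and 12485 in PBS control and 11672, 11629 and 12028 in PE control libraries. These groups did not overlap, yet the difference was small (a mean of 12455 ± 70.1 against 11777 ± 219), and the log2 change of -0.08 ± 0.12 did not pass the test (limma, adjusted p = 0.69). Its confidence interval at the 95% level ran from -0.34 to 0.18. Error and interval pool the spread of all 12 libraries, and the SD of Hspa5 was 2331 in PBS knockdown and 1418 in PE knockdown libraries. With only the 6 control libraries in the fit Hspa5 was not called either. Hsp90b1 changed by -0.12 ± 0.14, the exchange factor Hyou1 by 0.19 ± 0.09, and the secreted factor Manf by -0.04 ± 0.10, and none of these passed the test either. Sdf2l1 (chromosome 16, 17130138 to 17132383), which works with BiP and its J-domain partners, fell: it had 247, 229 and 217 in PBS control and 179, 153 and 157 in PE control libraries. Its log2 change of -0.50 ± 0.13 (limma, adjusted p = 0.00819) was called with any one library left out. Dnajc3, a J-domain co-chaperone of BiP also known as an inhibitor of PERK, had 1567, 1671 and 1557 in PBS control and 1296, 1236 and 1384 in PE control libraries. The groups did not overlap, but the log2 change of -0.29 ± 0.10 was close to the threshold (limma, adjusted p = 0.0432) and was lost in 9 of 12 fits without 1 library and with the replicate number as a block (adjusted p = 0.0502). With no filter on low values it was lost too (limma, adjusted p = 0.0641).

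Of the 8 genes of the calnexin cycle and oxidative folding, 1 rose and 0 fell. Pdia5, a scarce disulfide isomerase, had 259, 235 and 277 in PBS control and 348, 351 and 322 in PE control libraries. The groups did not overlap, and the log2 change was 0.40 ± 0.12 (limma, adjusted p = 0.0186). On values rescaled to equal totals it was 0.25 with an adjusted p of 0.182, and 4 of 12 fits without 1 library lost the call. P4hb changed by 0.26 ± 0.10, Canx by 0.22 ± 0.11 and Pdia4 by -0.22 ± 0.09 without passing the test, although the groups did not overlap in any of these. Calr (0.04 ± 0.12) and Pdia3 (0.01 ± 0.14) lay near 0, with intervals at the 95% level of -0.22 to 0.30 and -0.28 to 0.30. Neither translocon subunit passed the test: the channel subunit Sec61a1 changed by 0.21 ± 0.10 and Sec61b by 0.24 ± 0.11.

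Among the sensors and their transcription factor, Xbp1 fell with PE in control cells. It had 1944, 2130 and 1949 in PBS control and 1629, 1563 and 1807 in PE control libraries, without overlap. The log2 change of -0.27 ± 0.09 (limma, adjusted p = 0.038) was lost in 7 of 12 fits without 1 library and with the replicate block (adjusted p = 0.0592), and with no filter on low values (adjusted p = 0.0577). Atf6 had 2326, 2460 and 2308 in PBS control and 2370, 2545 and 2555 in PE control libraries, and Ern1 had 491, 448 and 466 against 528, 483 and 480. Both pairs of groups overlapped, with log2 changes of 0.07 ± 0.09 and 0.08 ± 0.13. Eif2ak3 had 345, 348 and 358 in PBS control and 282, 317 and 322 in PE control libraries, all lower with PE, but its log2 change of -0.19 ± 0.12 did not pass the test (limma, adjusted p = 0.28).

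**Figure D2:**
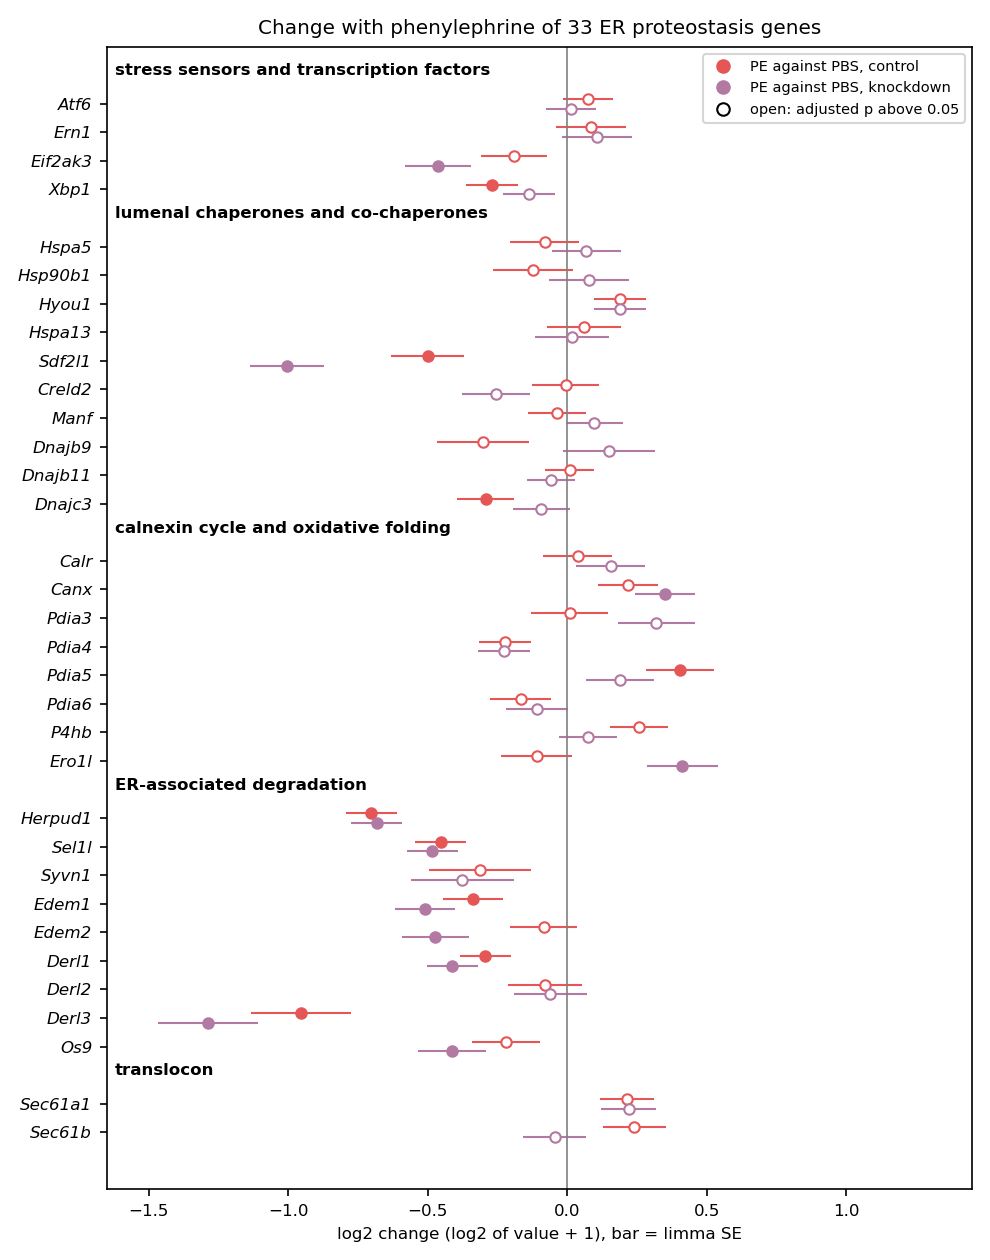
Log2 change with PE of each of the 33 genes, in control cells (red) and knockdown cells (purple), grouped by role, with the limma standard error as a bar and filled points for an adjusted p under 0.05. The 9 degradation genes all lie left of 0 in both, from -0.95 to -0.08 in control cells.

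Of the 11 genes whose promoter window held ERSE or ERSE-II, Herpud1, Derl3 and Dnajc3 were called lower with PE in control cells and the other 8 were not called. Of all 33 genes 24.2% were called lower there, and of all genes tested 12.8%. Xbp1, Sdf2l1, Sel1l and Edem1, whose windows held neither element, were called lower too. Whether the elements had a part in these changes was not tested. The elements printed above for Hspa5, Calr and Hsp90b1 thus stand before genes whose change with PE in control cells was between -0.12 and 0.04 on the log2 scale.

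Cell type markers also moved with PE, where 12.6% of all genes were called higher and 12.8% lower in control cells. In control cells 9 of 12 fibroblast markers fell and 1 rose, and their summed level went from between 79260 and 84623 to between 45351 and 49560. Of the endothelial markers 9 of 12 rose and 1 fell (6517 to 7580 in PBS, 12108 to 13671 in PE), and of the leukocyte markers 8 of 12 rose and 0 fell (2771 to 3484 in PBS, 3879 to 4455 in PE). Smooth muscle and pericyte markers rose in 6 of 11 and fell in 4 (61106 to 79135 in PBS, 118776 to 136380 in PE). Cardiac markers rose in 5 of 14 and fell in 2, with sums of 1013186 to 1092117 in PBS and 1504833 to 1807096 in PE. No defining marker of these lists was at 0 in all libraries. Their part in the fall of the degradation genes was not tested, and in such bulk RNA fewer cells of a type and less RNA per cell cannot be told apart.

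The second comparison put PE against PBS in knockdown cells, which share no library with the control cells. Here 7 of the 9 degradation genes fell, where 5 did in control cells. Of the 33 genes 9 were called lower (27.3%, where 14% of all genes were) and 2 higher (6.06%, where 13.4% were), and 27.4% of all genes were called in either direction. The groups did not overlap for 11 genes that were lower (19.1% of all genes) and 4 that were higher (19.6%). Among genes of at least the same abundance, 20.8% were called lower and 20.2% higher. The median log2 change was -0.059, against 0.005 over all genes, and on values rescaled to equal totals the split was 0 higher and 13 lower, where 9.08% of all genes were called higher and 20.4% lower. There the uncalled Atf6, Ern1, Hspa5, Hsp90b1, Hspa13, Manf and P4hb changed sign. Of the 8 genes called lower in control cells, 6 (75%) were also called lower here, and these were 66.7% of the 9 called here: Sdf2l1, Herpud1, Sel1l, Edem1, Derl1 and Derl3. The same overlap was not counted over all genes, so these shares do not set the 33 genes apart. Sums of the 12 fibroblast markers were 71130 to 85049 in PBS knockdown and 37536 to 40967 in PE knockdown libraries, with 10 of 12 lower and 1 higher, and their part in these falls was likewise not tested.

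In knockdown cells 7 of the 9 degradation genes fell and 0 rose, with a median log2 change of -0.473. Herpud1 had 4065, 4395 and 3777 in PBS knockdown and 2385, 2549 and 2682 in PE knockdown libraries, well apart. Its log2 change of -0.68 ± 0.09 (limma, adjusted p = 1.20e-05) was close to that in control cells. Derl3 had 151, 207 and 155 in PBS knockdown and 80.3, 67.8 and 59.6 in PE knockdown libraries. This was the largest fall of the 33 genes in any comparison, a log2 change of -1.29 ± 0.18 (limma, adjusted p = 1.92e-05), in a gene with few counts. Sel1l had 2972, 2920 and 3096 in PBS knockdown and 2063, 2202 and 2159 in PE knockdown libraries, a log2 change of -0.48 ± 0.09 (limma, adjusted p = 4.54e-04). Its groups did not overlap here either.

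Edem1 had 914, 873 and 858 in PBS knockdown and 591, 607 and 659 in PE knockdown libraries, and here the groups did not overlap. The log2 change was -0.51 ± 0.11 (limma, adjusted p = 0.00118). Derl1 had 2703, 2731 and 2689 in PBS knockdown and 1827, 2090 and 2208 in PE knockdown libraries, a log2 change of -0.41 ± 0.09 (limma, adjusted p = 0.00214). All 3 PBS libraries lay above all 3 PE libraries. Edem2, a mannosidase that starts glycan trimming for disposal, had 364, 423 and 373 in PBS knockdown and 260, 317 and 260 in PE knockdown libraries, a log2 change of -0.47 ± 0.12 (limma, adjusted p = 0.00558). Os9, which carries trimmed glycoproteins to Sel1l, had 1586, 1889 and 1599 in PBS knockdown and 1527, 1191 and 1116 in PE knockdown libraries. PE knockdown replicate 1 was only a little below the lowest PBS library. The log2 change was -0.41 ± 0.12 (limma, adjusted p = 0.0157), and the call was lost without PBS knockdown replicate 2, PE knockdown replicate 2 or PE knockdown replicate 3. Syvn1 did not pass the test: 1 of its PBS knockdown libraries, replicate 2, was at 2210 and the others at 1100 and 1284. The summed count of the 9 genes was 15106 ± 919 in PBS knockdown and 10733 ± 65 in PE knockdown libraries.

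Sdf2l1 was the only lumenal chaperone gene of the 10 called in knockdown cells. It had 306, 271 and 278 in PBS knockdown and 123, 151 and 153 in PE knockdown libraries, without overlap. The log2 change was -1.004 ± 0.132 (limma, adjusted p = 1.09e-05). Hspa5 ranged widely, at 14561, 10013 and 13171 in PBS knockdown and 11525, 13428 and 14298 in PE knockdown libraries. Its groups overlapped, and its log2 change of 0.07 ± 0.12 had an interval at the 95% level of -0.19 to 0.33.

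A pair of folding genes rose with PE in knockdown cells. Canx had 10953, 8673 and 11053 in PBS knockdown and 12220, 13032 and 13677 in PE knockdown libraries, a log2 change of 0.35 ± 0.11 (limma, adjusted p = 0.0186). Ero1l, the oxidase that passes electrons from disulfide isomerases to oxygen, had 1433, 1123 and 1499 in PBS knockdown and 1639, 1788 and 1941 in PE knockdown libraries, a log2 change of 0.41 ± 0.13 (limma, adjusted p = 0.0208). In both genes the groups did not overlap, and PBS knockdown replicate 2 was the lowest of its group. Both calls were lost without that library alone, without PE knockdown replicate 2 or 3, and on values rescaled to equal totals (0.21 and 0.27 on the log2 scale, limma adjusted p = 0.193 and 0.165). Canx was also not called with only the 6 knockdown libraries in the fit (adjusted p = 0.0823). Without the 3 libraries named above, that library among them, both were called (limma, adjusted p = 0.00845 for Canx and 0.0115 for Ero1l).

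Of the sensors, Eif2ak3 fell with PE in knockdown cells. It had 324, 381 and 336 in PBS knockdown and 219, 262 and 274 in PE knockdown libraries, without overlap, a log2 change of -0.46 ± 0.12 (limma, adjusted p = 0.00635). Xbp1 had 2009, 1777 and 1917 in PBS knockdown and 1803, 1698 and 1679 in PE knockdown libraries. Its groups overlapped, and the log2 change of -0.14 ± 0.09 did not pass the test. Atf6 (0.01 ± 0.09) and Ern1 (0.11 ± 0.13) did not pass it either. Without the 3 libraries named above 16 of the 33 genes were called, 4 higher and 12 lower, where 14.6% and 14.7% of all genes were. The 11 calls were kept, and Xbp1, Hyou1, Dnajc3, Pdia4 and Sec61a1 joined them.

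**Figure D3:**
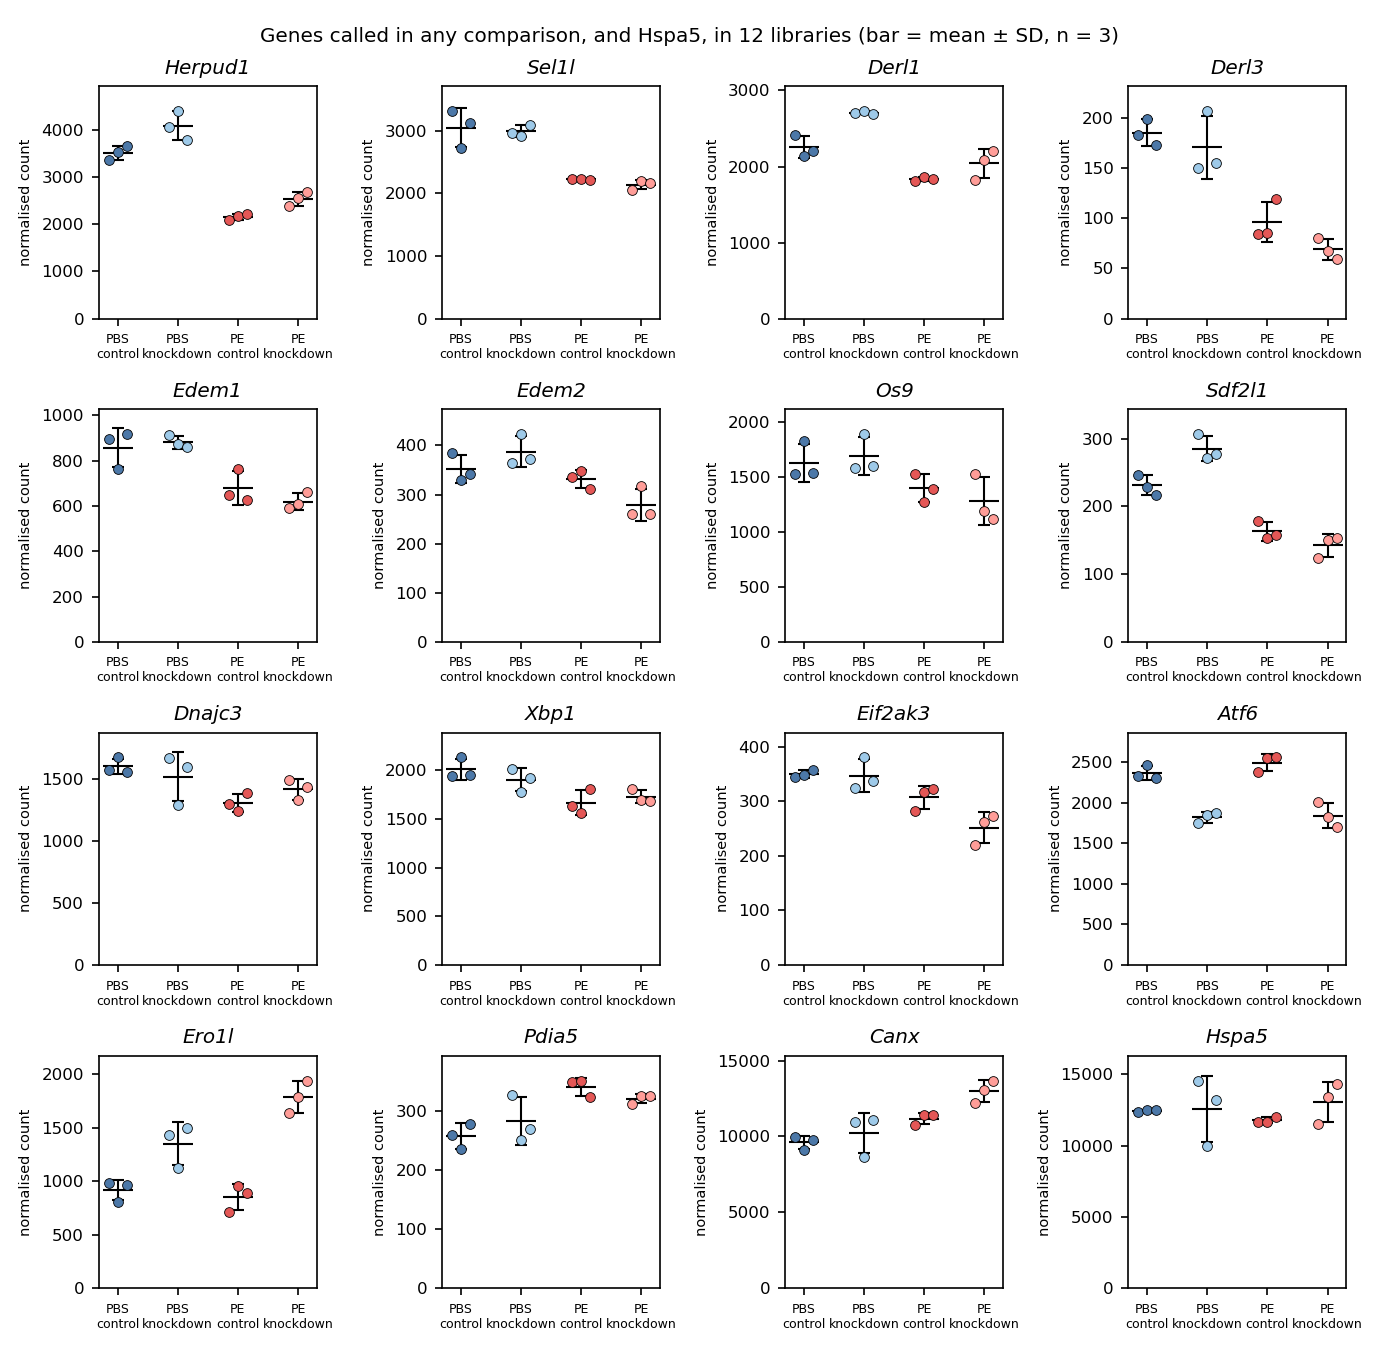
Normalised count in each of the 12 libraries for the 15 genes called in any comparison and for Hspa5, as points, with the mean and SD of each group of 3 as bars. Axes start at 0. Herpud1, Sel1l and Derl1 are lower in PE than in PBS libraries with the same GapmeR, Ero1l is highest in PE knockdown libraries, and Atf6 is lower in both knockdown groups.

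Another pair of comparisons asked what the knockdown of lincRNA-p21 did within PBS and within PE. In each, 1 of the 33 genes rose, Ero1l, and 1 fell, Atf6. In PBS each of these is 3.03% of the 33, where 1.36% of all genes were called higher and 3.21% lower (4.57% in either direction). In PE the same shares stand beside 4.57% of all genes called higher and 7.14% lower (11.7% in either direction). The count of 2 fell to 0 in PBS without PBS control replicate 2 or PBS knockdown replicate 1, and to 1 without PBS control replicate 1, PBS control replicate 3 or PBS knockdown replicate 3. In PE it rose to 4 without PBS knockdown replicate 2. Calls over all genes in PBS were 297 higher and 700 lower with all libraries. They were 174 and 493 without PBS control replicate 2, and 260 and 602 without PBS knockdown replicate 1. In PE they went from 997 and 1556 to 1462 and 2040 without PBS knockdown replicate 2. Without the 3 libraries named above the count for the 33 genes was 3 in PBS, with Sec61b added. There 3.36% of all genes were called higher and 5.19% lower. Rescaling to equal totals moved the split over all genes from 297 higher and 700 lower to 481 and 501 in PBS, and from 997 higher and 1556 lower to 1501 and 1100 in PE. The median log2 change of the 33 genes was 0.054 in PBS and 0.025 in PE, against 0.001 and 0.013 over all genes. The groups did not overlap for 8 genes higher and 2 lower in PBS (10.1% and 11.9% of all genes), and for 5 higher and 5 lower in PE (14.4% and 16.1%).

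Ero1l had 981, 809 and 967 in PBS control against 1433, 1123 and 1499 in PBS knockdown libraries, and 717, 953 and 893 in PE control against 1639, 1788 and 1941 in PE knockdown libraries. Every knockdown library lay above every control library. In PBS the means were 919 ± 95.8 and 1351 ± 201, which is 0.55 ± 0.13 on the log2 scale (limma, adjusted p = 0.0157). In PE they were 855 ± 123 and 1789 ± 151, which is 1.07 ± 0.13 on the same scale (limma, adjusted p = 1.00e-05). The rise of 109% in PE was called with any one library left out. The rise in PBS was not called without PBS control replicate 2, PBS knockdown replicate 1 or PBS knockdown replicate 3, or with only the 6 PBS libraries in the fit (adjusted p = 0.0752). Ero1l lies on chromosome 14 from 45283087 to 45318771 (GRCm38, minus strand).

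Atf6 had 1744, 1849 and 1867 in PBS knockdown libraries and 2001, 1827 and 1694 in PE knockdown libraries, against the control values of 2308 to 2460 in PBS and 2370 to 2555 in PE given above. Again no libraries overlapped. The log2 change was -0.38 ± 0.09 in PBS (limma, adjusted p = 0.0189) and -0.44 ± 0.09 in PE (limma, adjusted p = 0.00265). The call in PE was made with any one library left out. The call in PBS was lost without any 1 of the 3 PBS control libraries or PBS knockdown replicate 1, on values rescaled to equal totals (adjusted p = 0.0534) and with only the 6 PBS libraries (adjusted p = 0.0871). Atf6 (chromosome 1, 170704674 to 170867771, minus strand) spans 163.1 kb, the longest of the 33 genes, whose median is 18.2 kb. Of the 1478 genes with a mean of at least 130.3 that span at least 100 kb, 21.9% were called lower with the knockdown in PBS. In PE 44.5% of them were, where 2.88% and 7.42% of the 8980 shorter genes above the same floor were. These genes were not matched to the level of Atf6, whose mean over the 12 libraries was 2128.8. The part of gene length in the lower level of Atf6 was not tested.

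Chaperones, degradation genes and the other sensors did not pass the test in either comparison. Ern1 had 449, 645 and 527 in PBS knockdown and 642, 518 and 574 in PE knockdown libraries, log2 changes against control of 0.19 ± 0.13 and 0.21 ± 0.13. Eif2ak3 changed by -0.02 ± 0.12 in PBS and by -0.29 ± 0.12 in PE, and Xbp1 by -0.08 ± 0.09 and 0.05 ± 0.09. Herpud1 was higher in all knockdown libraries than in the control libraries of the same treatment, with log2 changes of 0.21 ± 0.09 and 0.23 ± 0.09 that did not pass the test (limma, adjusted p = 0.21 and 0.11). Hspa5 changed by 0.00 ± 0.12 and 0.15 ± 0.12, with intervals at the 95% level of -0.26 to 0.26 and -0.11 to 0.41. The J-domain gene Dnajb9 had the largest rise that missed the threshold in PE, 0.48 ± 0.17 (limma, adjusted p = 0.0698). Without the 3 libraries named above 9 genes were called in PE, 6 higher and 3 lower, where 9.3% and 12.1% of all genes were: Hspa5, Dnajb9, Canx, Herpud1, Derl1, Derl3 and Os9 joined Atf6 and Ero1l. The calls in PE thus depended on which libraries entered the fit. With the knockdown 0 of 14 cardiac markers rose and 1 fell in PBS, and 0 rose and 2 fell in PE. Their summed level did not overlap between control and knockdown libraries, at 1013186 to 1092117 against 844568 to 910062 in PBS and 1504833 to 1807096 against 1234920 to 1287408 in PE. Sums of the smooth muscle markers did not overlap either (61106 to 79135 against 56961 to 59946 in PBS, 118776 to 136380 against 87164 to 101173 in PE). In PE the fibroblast sums (45351 to 49560 against 37536 to 40967) and endothelial sums (12108 to 13671 against 10074 to 11940) did not overlap. Both overlapped in PBS, and the leukocyte sums overlapped in both treatments. Of the fibroblast markers 0 rose, 1 fell in PBS and 2 in PE, and of the endothelial markers 0 rose, 0 fell in PBS and 2 in PE. Of the leukocyte markers 1 rose in PBS and no other passed, and of the 11 smooth muscle markers 0 rose, 0 fell in PBS and 3 in PE. Over all genes 1.36% were called higher and 3.21% lower with the knockdown in PBS, and 4.57% and 7.14% in PE. The part of these markers in the knockdown results was not tested.

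**Figure D4:**
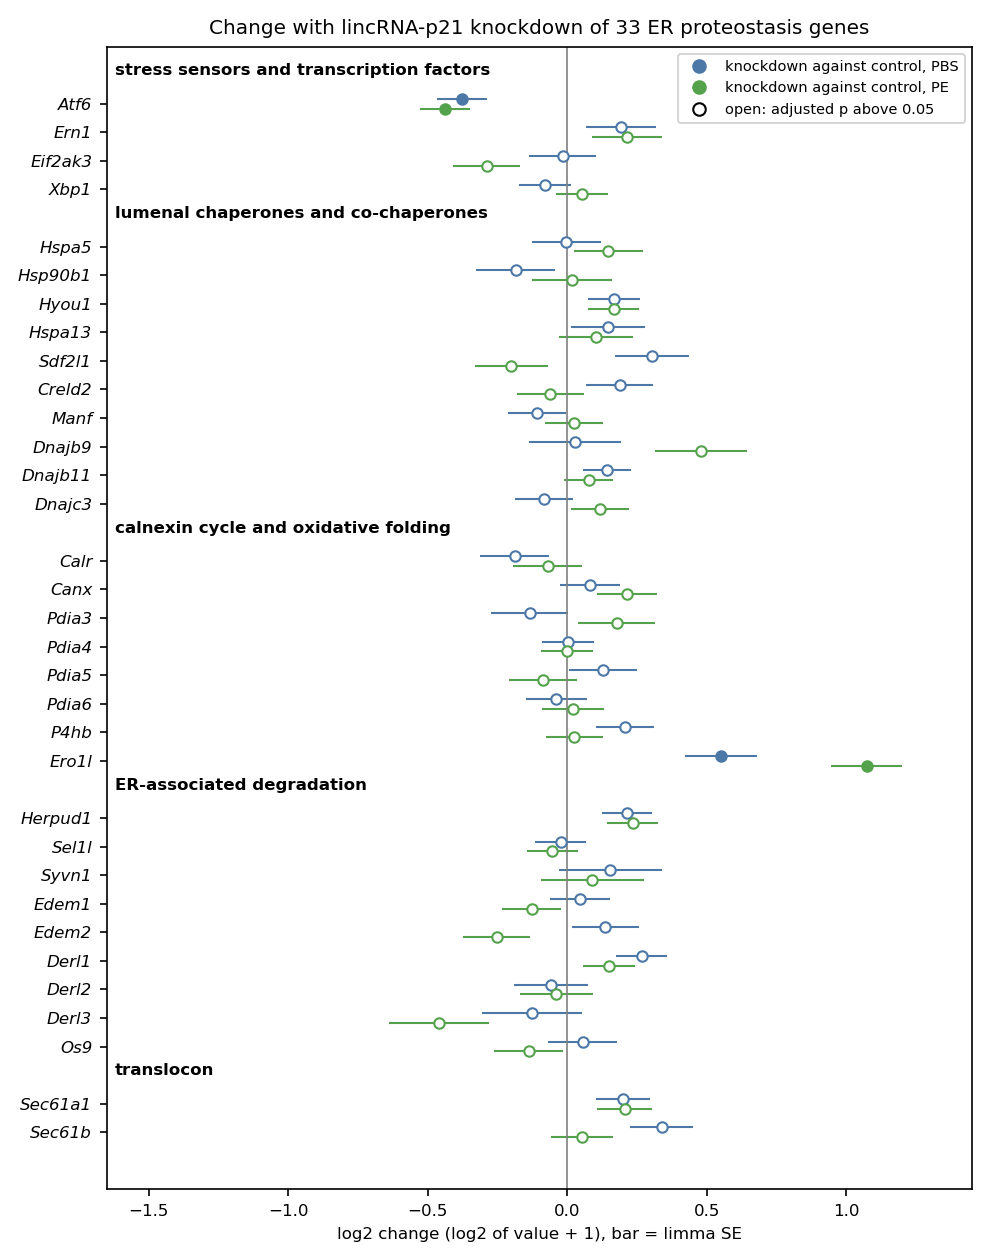
Log2 change with the knockdown of each of the 33 genes, in PBS (blue) and PE (green), grouped by role, with the limma standard error as a bar and filled points for an adjusted p under 0.05. Atf6 lies left of 0 at -0.38 and -0.44, and Ero1l right of 0 at 0.55 and 1.07.

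The interaction asked whether the log2 change with PE differed between control and knockdown cells. This sets the log2 change with both PE and the knockdown against the sum of the log2 changes with each alone. By limma 0 of the 33 genes passed (0 higher and 0 lower, where 0.055% of all genes were called), and edgeR and DESeq2 on the recovered reads also called 0. At an unadjusted p under 0.05 there were 3. They were Ero1l, with a log2 difference of 0.52 ± 0.18 (limma, adjusted p = 0.38), Sdf2l1 with -0.50 ± 0.19 (adjusted p = 0.40) and Edem2 with -0.39 ± 0.17 (adjusted p = 0.47). The intervals of the degradation genes were wide: that of Herpud1 ran from -0.25 to 0.29 at the 95% level and that of Derl3 from -0.86 to 0.20. The larger number of degradation genes called in knockdown cells therefore does not show that they fell further there.

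Other lists of proteostasis genes were read beside the 33. They hold no gene of the 33, and each count is out of the genes tested. For comparison, 12.6% of all genes were called higher and 12.8% lower with PE in control cells, and 13.4% and 14% in knockdown cells. The shares with the knockdown were 1.36% and 3.21% in PBS, and 4.57% and 7.14% in PE. Among the 10470 genes with a mean of at least 130.3, the shares with PE were 19.6% and 16.1%, and 20.2% and 20.8%. With the knockdown they were 2.31% and 5.56%, and 6.49% and 12.6%. Of 16 genes of the PERK branch and its ATF4 output, 4 rose and 4 fell with PE in control cells. The pseudokinase gene Trib3 fell by 1.75 ± 0.12 on the log2 scale and the transcription factor gene Atf3 rose by 1.10 ± 0.15 (limma, adjusted p = 2.95e-09 and 1.96e-05). With PE in knockdown cells 10 rose and 2 fell, and with the knockdown in PE 10 rose and 0 fell, among them Ddit3, which encodes the stress factor CHOP, at 1.08 ± 0.10 (limma, adjusted p = 3.58e-07). With the knockdown in PBS 2 rose and 0 fell. The median log2 change with the knockdown in PE was 0.473 in this list and 0.025 in the 33 genes, and 0.013 over all genes. The name of the list does not mean that PERK was active, which counts per gene do not show. The part of PERK in these changes was not tested.

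Of 28 further degradation genes, 2 rose and 2 fell with PE in control cells (median -0.036), and 5 rose and 4 fell in knockdown cells (median -0.038). The small inhibitor gene Svip fell in both (-0.84 ± 0.17 and -0.63 ± 0.17, limma, adjusted p = 8.16e-04 and 0.00784), and Aup1, a lipid droplet and ER protein of the HRD1 pathway, rose in both (0.51 ± 0.11 and 0.55 ± 0.11, limma, adjusted p = 0.00144 and 7.32e-04). With the knockdown 0 of the 28 rose and 1 fell in PBS, and 2 rose and 2 fell in PE. Of 33 other folding genes, 6 rose and 2 fell in control cells and 3 rose and 7 fell in knockdown cells. With the knockdown 1 rose and 1 fell in PBS and 1 rose and 2 fell in PE. The gene that fell in both was Sil1, an exchange factor of BiP, from 401 ± 42.2 to 199 ± 8.34 in PBS and from 366 ± 23.0 to 141 ± 22.9 in PE (-1.01 ± 0.13 and -1.38 ± 0.13 on the log2 scale; by limma the adjusted p was 1.03e-04 and 7.55e-07). The part of gene length, described above for Atf6, was not tested for Sil1 or any other gene of the further lists.

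Translocation, signal peptide and glycosylation genes rose with PE in 7 of 26 cases in control cells and in 8 of 26 in knockdown cells, and none fell. With the knockdown 1 rose in PBS and none in PE, and 0 fell. Spcs3, a signal peptidase subunit, changed by 0.67 ± 0.12 in control cells (limma, adjusted p = 3.72e-04). On values rescaled to equal totals these counts were 2 higher and 0 lower, and 3 higher and 2 lower. Over all genes 7.72% were then called higher and 19.8% lower in control cells, and 9.08% and 20.4% in knockdown cells. Of 30 ER to Golgi transport genes 3 rose and 0 fell in control cells and 1 rose and 1 fell in knockdown cells. With the knockdown none passed in PBS, and in PE 0 rose and 5 fell, among them Sec16a (-0.68 ± 0.13) and Sec24d (-0.65 ± 0.10; limma, adjusted p = 0.00115 and 1.47e-04). Of 15 genes of sensor proteases and CREB3 factors, 3 rose and 1 fell in control cells. The one that fell was Mbtps1, the site-1 protease that cleaves ATF6 (-0.39 ± 0.09, limma, adjusted p = 0.00352). With PE in knockdown cells 1 rose and 4 fell, Mbtps1 again among them (-0.45 ± 0.09, limma, adjusted p = 9.22e-04). With the knockdown 0 passed in PBS, and 0 rose and 3 fell in PE: Map3k5 (-0.55 ± 0.11), Creb3l2 (-0.51 ± 0.11) and Traf2 (-0.47 ± 0.14; limma, adjusted p = 0.00205, 0.00406 and 0.0396).

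Chaperones outside the ER were counted beside those of its lumen. Of 30 cytosolic heat shock genes 13 rose and 0 fell in control cells (median 0.322), and 16 rose and 1 fell in knockdown cells (median 0.363). Hspb8, a small heat shock protein of muscle, changed by 0.92 ± 0.09 in control cells (limma, adjusted p = 1.72e-07). Of 15 mitochondrial chaperones and proteases 10 rose and 0 fell in control cells (median 0.36) and 8 rose and 0 fell in knockdown cells (median 0.327), among them Hspd1 at 0.57 ± 0.14 in control cells (limma, adjusted p = 0.00529). On values rescaled to equal totals 10 heat shock genes rose and 2 fell in control cells, and 4 mitochondrial genes rose and 1 fell. The shares of all genes were then 7.72% higher and 19.8% lower. With the knockdown 1 heat shock gene rose in PBS and 3 fell in PE, and 0 mitochondrial genes passed in PBS and 1 fell in PE. The 10 lumenal ER chaperones had 0 higher and 2 lower in control cells, and 0 higher and 3 lower after rescaling. No test of the difference between lists was made.

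**Figure D5:**
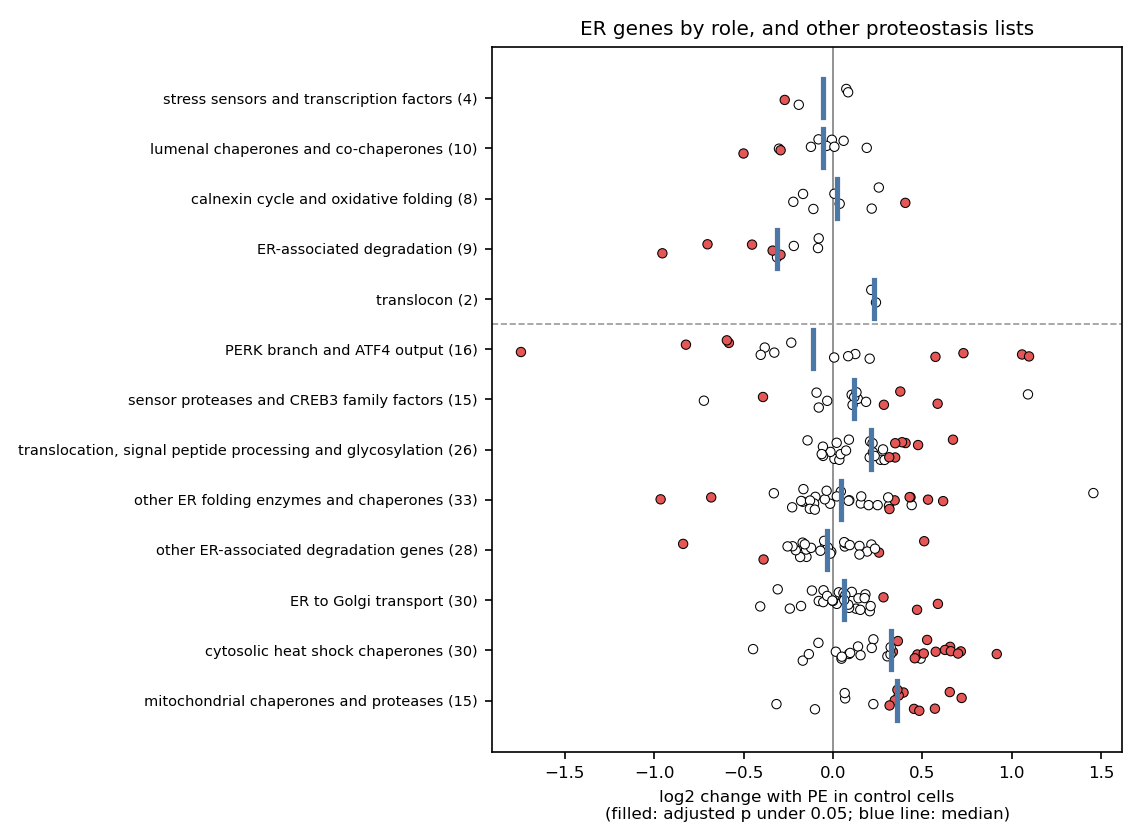
Log2 change with PE in control cells of each gene, by role for the 33 genes (above the dashed line) and by list for the others (below it, number of genes tested in brackets), filled where the adjusted p was under 0.05, with the median of each list as a blue line. The medians run from -0.313 for the 9 degradation genes to 0.36 for the 15 mitochondrial genes.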

How the data were processed

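RNA from 12 libraries of neonatal mouse cardiomyocytes was analysed at the level of genes, with groups taken from the labels. The submitters' processing notes name STAR, SAMtools, featureCounts and the build GRCm38.p6. The sources used here give no version, annotation release or use of strand. As deposited by the authors, the table holds a signal for 55416 genes, made of whole reads scaled library by library with factors of 0.9213 to 1.1064. Multiplying by the factor gave whole reads for 100% of values (tolerance 0.001). Mitochondrial genes held 4.33% to 10.72% of reads, and 0 columns belonged to no sample.

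Genes with a mean of at least 1 (21799) were tested with limma 3.58.1 (R 4.3.3; trended prior, two-sided) on log2 of the value plus a pseudocount of 1. The fit had 4 group means over all 12 libraries, with Benjamini-Hochberg adjustment over all genes and a threshold of 0.05. It was tested on simulated data. Alternatives were a pseudocount of 0.1, no filter, edgeR 4.0.16 with TMM factors and DESeq2 1.42.0 on the recovered reads, equal totals, only the 6 libraries compared, a replicate block, and libraries left out singly or, for the 3 libraries named above, together. Those 3 were picked with earlier results known and are not the 3 farthest from their groups. Counts of the degradation genes and further lists under these were added after the data were seen. The members, the lists and the genes named were chosen with earlier results of these data known. Named were all 33 genes, up to 3 called genes with the largest change of each further list per comparison, and promoters of called genes with an element.

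Symbols came from GENCODE M21 by identifier without version (52083 genes), and 2 listed degradation genes were not found under their symbols. Promoters came from RefSeq. Exons of Hsp90b1, Eif2ak3, Manf, Pdia3, Pdia6, Syvn1 and Derl2 overlap those of other genes by at most 10.29% of their length, and reads there cannot be told apart.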

Additional observations from a re-analysis of the deposited data

Results flagged for a closer look

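Sdf2l1 differed in direction between the treatments: its log2 change with the knockdown was 0.30 ± 0.13 in PBS and -0.20 ± 0.13 in PE, and the control and knockdown libraries did not overlap in either. Normalised counts were 231 ± 14.9 and 285 ± 18.8 in PBS, and 163 ± 13.8 and 142 ± 16.6 in PE. Neither change passed the test (limma, adjusted p = 0.23 and 0.41), and the difference itself, -0.50 ± 0.19, did not pass it either (limma, adjusted p = 0.40).

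Trib3, of the PERK and ATF4 list, was the one gene of the further lists called in the interaction, with a log2 difference of 2.08 ± 0.17 (limma, adjusted p = 6.24e-06). Its normalised count was 561 ± 27.1 in PBS control, 768 ± 95.7 in PBS knockdown, 167 ± 12.1 in PE control and 968 ± 143 in PE knockdown libraries.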

How the results depend on the processing

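No called change among the 33 genes changed sign under the alternatives run. Over all genes, calls for the knockdown in PE went from 997 higher and 1556 lower to 1501 and 1100 on rescaled values. On rescaled values 6, 7, 5, 4 and 2 uncalled genes of the 33 changed sign in the 5 comparisons. For PE in control cells 9 of the 33 genes were called, and 7 with no filter (Xbp1 and Dnajc3 were not). With only the 6 libraries compared 14 were called, 4 higher and 10 lower, where 15.0% and 14.9% of all genes were. Without the 3 libraries left out together 14 were called too, where 17.4% of all genes were called higher and 16.6% lower. For PE in knockdown cells 11 were called, and 16 without the 3 libraries. For the knockdown in PBS 2 were called, 3 without them, 1 on rescaled values and 0 with only the 6 libraries. For the knockdown in PE 2 were called, 4 on rescaled values (3 higher, 1 lower) and 9 without the 3 libraries. On rescaled values 6.91% of all genes were called higher there and 5.06% lower. With 1 library left out the counts were 4 to 13 for PE in control cells, 8 to 13 for PE in knockdown cells, 0 to 2 and 2 to 4 for the knockdown in PBS and in PE, and 0 for the interaction. Calls over all genes also differed between these fits, as given above for some of them. Degradation genes called lower with PE ranged from 3 to 6 in control and from 6 to 8 in knockdown cells.

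Among the further lists, run on rescaled values and without the 3 libraries after the data were seen, rescaling gave 2 translocation genes called higher with PE in control cells (15 without the 3 libraries) and 3 in knockdown cells. Mitochondrial genes called higher on rescaled values were 4 and 5, and heat shock genes without the 3 libraries were 21 in control cells. Over all genes 7.72% and 9.08% were called higher with PE in control and knockdown cells on rescaled values. Without the 3 libraries 17.4% were in control cells. Which property of these libraries or scalings moved the counts was not tested.

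With the replicate number as a block, 7 of the 33 genes were called for PE in control cells (Xbp1 and Dnajc3 were not), and 11, 2, 2 and 0 in the other comparisons. Residuals of libraries with the same number correlated between -0.435 and 0.409, with 4 of 18 pairs over 0.1, so the numbers were not treated as pairs. The interaction of 33 genes rests on the widest errors. In all genes it was called for 12 higher and 0 lower by limma, for 62 and 62 by DESeq2, and for 74 and 69 without the 3 libraries. In counts over genes, replicate pairs gave a chi-square of 2.42 to 53.5 for each degree of freedom, where counting noise gives about 1, so the spread between 3 libraries, more than depth, limits the precision.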
